A study of Mus musculus with 34 samples.

Results

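The late red cell remodelling genes examined here are 10 genes that act while a red cell precursor condenses and expels its nucleus and clears its mitochondria, ribosomes and surplus proteins. They were taken from a named list: Xpo7, Ube2o, Ube2h, Bpgm, Tmcc2, Bnip3l, Trim58, Trim10, Ulk1 and Ube2l6. The first 5 were put on the list because their signal was lower where Rb1 was lost in these same arrays, so that their Rb1 values below are a description without a test. The other 5 were not picked on that contrast. Of the 10 genes, 8 had probe sets of their own, 22 in all, among the 12723 genes tested. The 3 probe sets that name Bnip3l also name a second, related gene, so no value is given for Bnip3l, and no probe set of Trim58 was found in the annotation used here.

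In the last divisions of red cell formation the nucleus shrinks, opens transiently and is pushed out, leaving a reticulocyte that then digests its remaining organelles. Ubiquitin enzymes mark proteins and ribosomes for the proteasome at this stage, while autophagy and a mitochondrial receptor remove mitochondria. Fetal liver is the main site of red cell formation at midgestation, so late erythroblasts make up much of its RNA. Rb1, p107 and p130 are the 3 retinoblastoma family proteins, which bind E2F transcription factors and restrain cell division, and loss of Rb1 in mice is known to impair the final maturation of fetal red cells.

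RNA came from whole, unsorted and untreated fetal liver of mice at embryonic day 14.5 by the sample labels, while the design text gives a span of about a day. The 34 arrays comprised 6 livers labelled Rb1;p107;p130 TKO, which lack all 3 proteins, 9 Rb1;p130 DKO, 5 Rb1;p107 DKO, 2 Rb1 KO, 6 p107;p130 DKO, 3 p130 KO, 1 p107 KO and 2 wild type. Rb1 was thus lost on 22 arrays and present on 12, and p107 was lost on 18 and present on 16. The alleles, any Cre driver, strain and sex are not given in the sources used here, nor is it stated whether arrays come from separate animals, so p-values measure the spread between these samples. In unsorted liver, fewer cells of a type and less RNA per cell cannot be told apart.

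The labels were checked on the targeted genes. Rb1 signal averaged 1231 ± 326 on arrays without Rb1 (SD, n = 22) and 6574 ± 1228 on arrays with it (SD, n = 12), and Rbl1, the gene of p107, averaged 77.5 ± 24.8 where lost (n = 18) and 1805 ± 560.2 where present (n = 16). Rbl2, the gene of p130, averaged 194.9 ± 46.1 where lost (n = 24) and 374.6 ± 80.8 where present (n = 10). Its groups overlapped, at 105.5 to 265.4 where lost and 246.2 to 481.3 where present, so Rbl2 checks its label less clearly. Signals are linear MAS5 intensities, and the median signal of an array was 80.6 to 115.9. Arrays fell into 3 array groups of 17, 10 and 7, inferred from how probe sets of the same gene differed and not from a recorded batch, and 4 of the 5 Rb1;p107 DKO arrays lay in the second of them. Values with array group as a block are therefore given where they differ. Arrays 8 and 9 of the Rb1;p130 DKO were left out as a check, and the Rb1 terms of the 5 picked genes then ran from -0.70 to -0.36. Of 12 late red cell markers (among them Slc4a1, Alas2 and Rhag), 10 had probe sets, none averaged below 100, and none was called with Rb1 loss. Their summed signal had a median of 159812 without Rb1 (123227 to 190099) and 147962 with it (117490 to 181072). The marker lists of early red cells and progenitors, hepatocytes, macrophages, neutrophils and megakaryocytes likewise had no gene called with Rb1 loss.

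Promoter windows from RefSeq (GRCm38.p6, 250 bases before to 50 after a transcript start, the window farthest upstream where a gene has several) were found for 7 of the 10 genes. The start lies at the outer end of the gene's annotated bounds for 4 of the 7, and inside those bounds by 537 bases for Tmcc2, 78 for Trim10 and 39 for Ulk1. Xpo7, Ube2o and Bnip3l are named only. Because the genes varied together across arrays, as described below, the windows of 3 genes that were lower without Rb1 and of Trim10, which was not picked, are shown. Each reads 5′ to 3′ on the gene's strand. Ube2h lies on the minus strand of chromosome 6 (window chr6:30304490-30304789), Bpgm on the plus strand of chromosome 6 (chr6:34476106-34476405), Tmcc2 on the minus strand of chromosome 1 (chr1:132391337-132391636) and Trim10 on the plus strand of chromosome 17 (chr17:36869324-36869623). Capitals mark every match, on either strand, to a letter string that red cell factors of the GATA or KLF families recognise.
Ube2h: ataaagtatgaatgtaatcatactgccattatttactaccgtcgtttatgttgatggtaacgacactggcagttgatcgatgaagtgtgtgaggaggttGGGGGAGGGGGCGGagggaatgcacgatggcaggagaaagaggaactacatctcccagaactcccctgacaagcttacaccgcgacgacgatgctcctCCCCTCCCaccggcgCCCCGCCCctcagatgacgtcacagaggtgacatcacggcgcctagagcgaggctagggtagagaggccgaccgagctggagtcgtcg
Bpgm: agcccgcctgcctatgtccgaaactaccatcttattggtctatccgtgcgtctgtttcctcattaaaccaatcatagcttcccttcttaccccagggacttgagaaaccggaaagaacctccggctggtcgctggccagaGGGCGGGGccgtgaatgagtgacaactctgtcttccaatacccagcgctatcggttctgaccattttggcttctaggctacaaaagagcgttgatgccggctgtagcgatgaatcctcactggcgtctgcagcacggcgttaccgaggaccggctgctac
Tmcc2: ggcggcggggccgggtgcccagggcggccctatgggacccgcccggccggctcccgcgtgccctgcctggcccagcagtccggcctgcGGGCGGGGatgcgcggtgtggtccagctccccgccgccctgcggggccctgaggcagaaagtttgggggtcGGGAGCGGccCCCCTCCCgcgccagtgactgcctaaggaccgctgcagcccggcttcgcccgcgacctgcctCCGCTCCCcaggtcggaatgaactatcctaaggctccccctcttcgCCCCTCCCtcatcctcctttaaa
Trim10: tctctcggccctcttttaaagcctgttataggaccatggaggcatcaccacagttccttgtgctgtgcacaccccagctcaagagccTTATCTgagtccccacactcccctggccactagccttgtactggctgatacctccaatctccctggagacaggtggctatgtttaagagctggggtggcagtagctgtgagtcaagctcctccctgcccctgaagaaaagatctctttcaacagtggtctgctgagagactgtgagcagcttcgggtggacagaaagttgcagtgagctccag

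The KLF string searched was CCNCNCCC. It occurred 5 times in the Ube2h window, where 3 matches overlap in 1 run, 5 times in the Tmcc2 window and 1 time in the Bpgm window. Of the windows not printed, Ulk1 held 3 matches and Ube2l6 2, so that 5 of 7 genes held a match, beside 49.2% of 27025 promoters of the same length. The GATA strings were AGATAA or AGATAG, and TGATAA or TGATAG. Their matches stood in the windows of Trim10 (at bases -163 to -158 from the start, on the opposite strand) and Trim58, beside 30.2% of all promoters. E2F strings (TTTCCCGC, TTTGGCGC, TTTCGCGC and TTTGCCGC), the sites of the factors that Rb1 binds, had no match in any of the 7 windows and were in 2.33% of all promoters. The core strings of hypoxia factors (ACGTG and GCGTG) matched in 3 of the 7 windows, beside 43.8% of all promoters. FOXO strings (GTAAACA and ATAAACA) matched in none, beside 7.9%. Such matches describe letters in these windows and do not show binding.

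Xpo7 encodes a nuclear exportin that, in mouse erythroblasts, carries proteins such as histones out of the condensing nucleus and is needed for enucleation. On its brightest probe set the 6 TKO arrays had signals of 9195 at the lowest, 9964 at the median and 13688 at the highest, and the 9 Rb1;p130 DKO arrays 11126, 11954 and 15097. The Rb1;p107 DKO arrays had 7672, 14733, 13545, 13654 and 14149, and the Rb1 KO arrays 9465 and 13070.3. The 6 p107;p130 DKO arrays had 14885 at the lowest, 18030.1 at the median and 23825 at the highest, the p130 KO arrays 16843, 16997 and 25362, the p107 KO array 19670.0 and the wild-type arrays 15988 and 25194. The genotype means thus formed a lower set without Rb1, from 10776 in TKO livers to 12752 in Rb1;p130 DKO livers, and a higher set with it, from 18529 in p107;p130 DKO livers to 20591 in wild type. Within each set neighbouring means lay closer than their SDs, and the 2 sets were separated by a gap wider than either neighbour's SD. Of the 22 arrays without Rb1, 21 lay below every array with it. The highest Rb1;p130 DKO array, at 15097, lay above 2 p107;p130 DKO arrays.

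The 8 probe sets of Xpo7 did not report the loss equally. On the brightest, mean signal was 12078 ± 2071 without Rb1 (SD, n = 22) and 19269 ± 3941 with it (SD, n = 12), 1.6-fold lower. On probe set 1415682_at it was 5055 ± 1011 without Rb1 and 9599 ± 1325 with it, 1.94-fold lower, and on 1435814_at it was 258.1 ± 69.9 without Rb1 and 676.7 ± 161.0 with it, 2.52-fold lower. These last 2 probe sets had no overlap between arrays: the highest signal without Rb1 was 7190.0 and the lowest with it 8155 on 1415682_at, and on 1435814_at the highest was 367.4 without Rb1 and the lowest 483.3 with it. On the brightest probe set of each gene, 2 of 12723 genes (0.0157%) had all 22 arrays without Rb1 below all 12 with it, and none was among the 8 genes here. That share is for brightest probe sets only, and the share over all probe sets was not counted. How rare the lack of overlap on the 2 dimmer Xpo7 probe sets is was therefore not tested. Xpo7 was also picked by this same contrast, so it is a description. Probe set 1446826_at reached 100 on 11 arrays and differed by a log2 value of -0.43 ± 0.19. The other 4 reached 100 on 1 array at most.

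**Figure D1:**
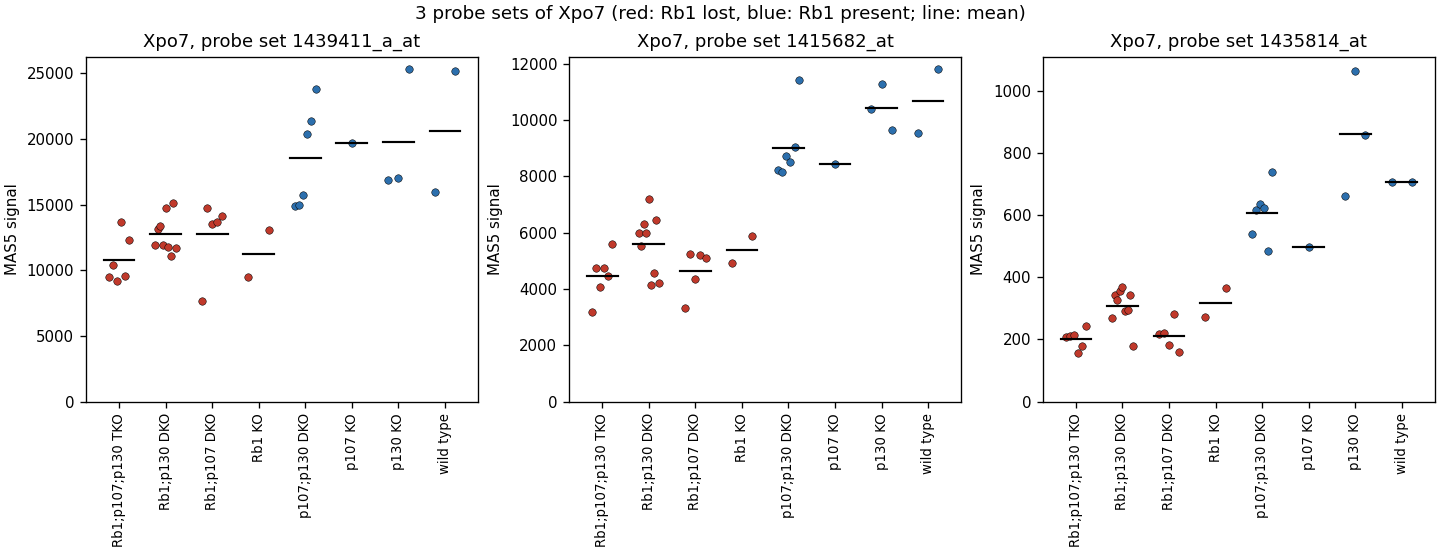
MAS5 signal of 3 Xpo7 probe sets (y axis, linear, from 0) on each of the 34 arrays by genotype (x axis). Points are arrays, red without Rb1 and blue with it, and lines are genotype means. On 1415682_at and 1435814_at every red point lies below every blue point, while on 1439411_a_at 1 red point reaches the lowest blue ones. Xpo7 was picked for its fall with Rb1 loss.

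Xpo7 lies at chr14:70662126-70770864 (GRCm38.p6), 2.42 Mb from Rb1, and the part of alleles linked to the targeted locus in its values was not tested. Of 45 other tested genes within 5 Mb of Rb1 on either side, none was called with Rb1 loss, beside 2.26% of all genes. At that share few calls would arise among 45 genes. Their median log2 change was -0.03. Bnip3l lies 6.18 Mb from Rb1 on the same chromosome. The other measured genes lie on other chromosomes, Ube2o at chr11:116537740-116581503, Ube2h at chr6:30211289-30304539, Bpgm at chr6:34476356-34505136, Tmcc2 at chr1:132356315-132391923, Trim10 at chr17:36869496-36877833, Ulk1 at chr5:110784489-110810120 and Ube2l6 at chr2:84798828-84810003. Each array probe set reads a part of a transcript, and which exon or UTR it reads is not given in the sources used here.

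Ube2o and Ube2h are ubiquitin-conjugating enzymes that rise late in red cell formation. Ube2o joins ubiquitin to unassembled proteins, ribosomal proteins included, and in mice its loss leaves ribosomes in reticulocytes. Without Rb1 its signal had a low of 1329, a median of 2327 and a high of 3677 over 22 arrays, and with Rb1 a low of 2610.2, a median of 3564 and a high of 5430 over 12. The groups overlapped, with 16 of the 22 arrays without Rb1 below all arrays with it. Genotype means were 1914 ± 472 in TKO, 2613 ± 752 in Rb1;p130 DKO, 2176 ± 494 in Rb1;p107 DKO and 2517 ± 615 in Rb1 KO livers, against 3236 ± 528 in p107;p130 DKO, 3777 ± 990 in p130 KO, 3254 in p107 KO and 4496 ± 1321 in wild-type livers. The additive Rb1 term, which sets arrays without Rb1 against arrays with it after terms for p107 and p130, was -0.68 ± 0.12 on the log2(signal + 32) scale (SE), 1.6-fold lower.

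Ube2h works with the CTLH ubiquitin ligase, whose subunit Maea is needed in red cell precursors. Its signal had a low of 1870, a median of 2829 and a high of 3518 without Rb1, and a low of 2949, a median of 4096 and a high of 5720.3 with it. Here 12 of 22 arrays without Rb1 lay below all arrays with it. The 4 arrays with Rb1 that lay at or below the highest array without it held 3 of the 6 p107;p130 DKO arrays and 1 of the 2 wild-type arrays, all of them in the first array group. The Rb1 term was -0.59 ± 0.10, and the other 3 probe sets of Ube2h gave -0.52 ± 0.09, -0.40 ± 0.09 and -0.35 ± 0.14.

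Bpgm, the enzyme that makes the bisphosphoglycerate by which red cells tune the oxygen affinity of haemoglobin, had a low of 3830.1, a median of 5098 and a high of 6616 without Rb1, and a low of 4453, a median of 7543 and a high of 10438 with it. The low value with Rb1 was 1 of the 2 wild-type arrays (4453, the other at 9993), which differed more from each other than any pair of genotype means did. All 22 arrays without Rb1 lay below the mean of those with it, but only 4 lay below all of them. The Rb1 term was -0.52 ± 0.09, and -0.50 ± 0.11 and -0.63 ± 0.08 on the other 2 probe sets. Tmcc2, a coiled-coil membrane protein, had a low of 13112, a median of 21926 and a high of 28045 without Rb1, and a low of 22209, a median of 26057 and a high of 33179 with it. Its Rb1 term was the smallest of the 5, at -0.35 ± 0.09 (1.28-fold lower) and -0.30 ± 0.09 on its second probe set. The rule states no threshold. Of the measured genes not picked, Ube2l6 had the Rb1 term furthest below 0, at -0.21 ± 0.08.

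**Figure D2:**
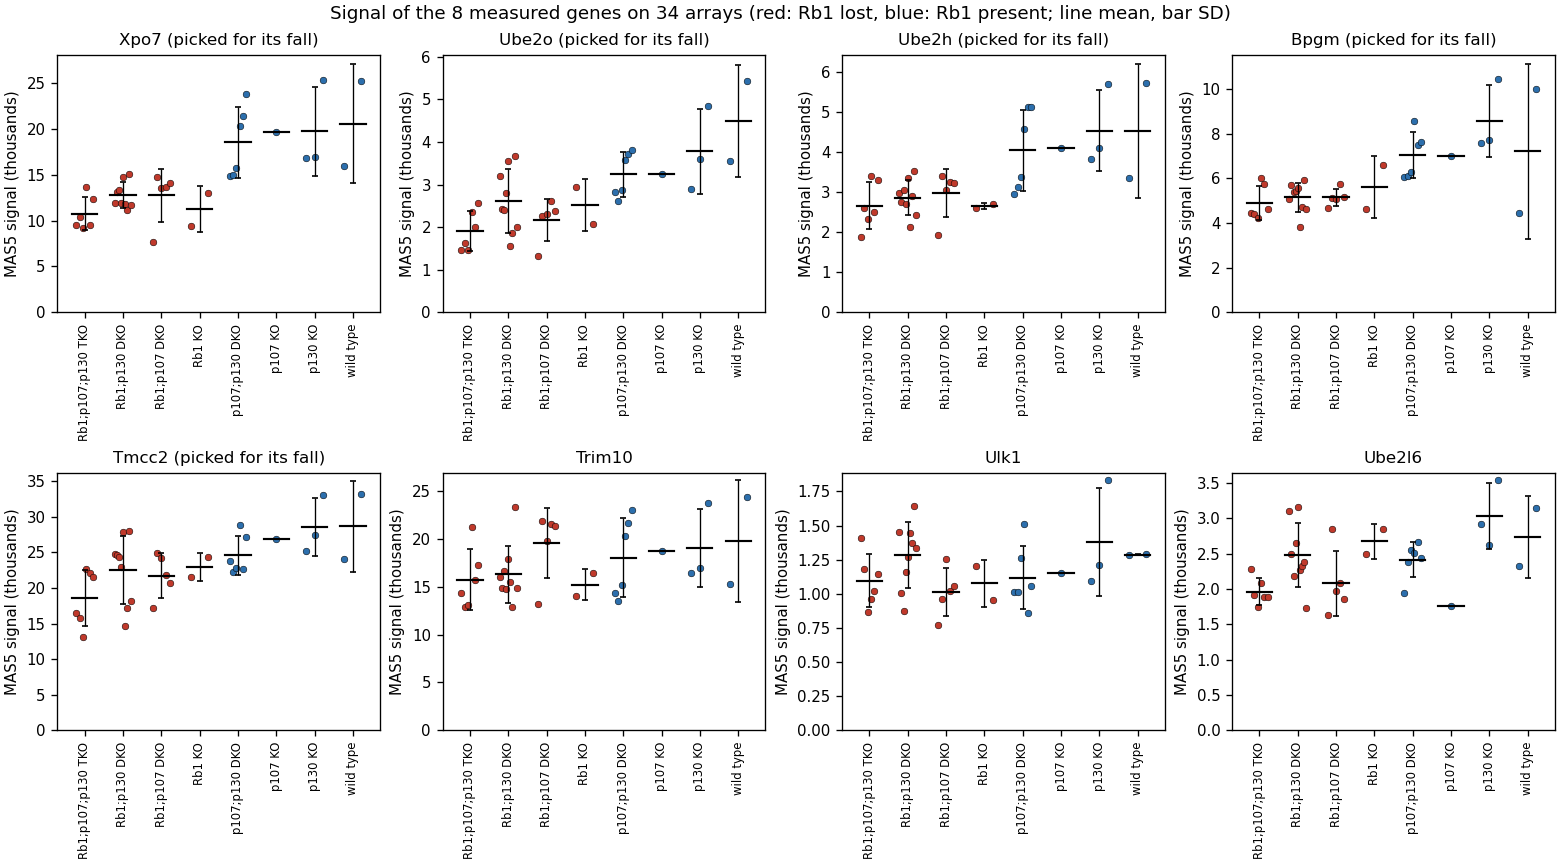
MAS5 signal (y axis, linear, from 0, in the units the axis states) of the 8 measured genes on 34 arrays by genotype (x axis), red without Rb1 and blue with it, with the mean (line) and SD (bar). Xpo7, Ube2o, Ube2h, Bpgm and Tmcc2 have lower genotype means in the 4 groups without Rb1, and the genotype means of Trim10, Ulk1 and Ube2l6 overlap. Single arrays overlap for all 8 genes. Of the 12 arrays with Rb1, those at or below the highest array without it number 8 for Ube2o and 9 for Tmcc2. They number 10 for Trim10, 11 for Ulk1 and 11 for Ube2l6.

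The 3 measured genes that were not picked did not pass the test with Rb1 loss. Genes that fell had been picked by this same contrast, so this outcome may in part follow from the choice. Trim10, a RING-finger protein that mouse red cell precursors need to mature, had a low of 12872, a median of 15837 and a high of 23341 without Rb1, and a low of 13535, a median of 17839 and a high of 24345 with it. Its Rb1 term was -0.15 (95% interval -0.35 to 0.04; limma, Benjamini-Hochberg adjusted p = 0.626). Ulk1, the kinase that starts autophagy and is needed in mice for timely removal of mitochondria and ribosomes from reticulocytes, had a low of 773, a median of 1152 and a high of 1645 without Rb1, and a low of 856.0, a median of 1181 and a high of 1832 with it. Its Rb1 term was -0.08 (-0.26 to 0.09, limma adjusted p = 0.829), and on its dimmer probe set 0.09. Ube2l6, the conjugating enzyme of the ubiquitin-like protein ISG15, had an Rb1 term of -0.21 (-0.36 to -0.05, limma adjusted p = 0.268). None of these 3 genes was called with Rb1 loss, where 2.26% of all genes tested were, nor in the TKO against the p107;p130 DKO (0.377% of genes), in the Rb1;p130 DKO against the p130 KO (0.118%) or in the Rb1 KO against wild type (0.00786%).

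The 5 picked genes had lower means without Rb1 in each of 3 pairs of genotypes that differ by Rb1. Between TKO and p107;p130 DKO livers the log2 changes were -0.77 ± 0.15 for Xpo7, -0.77 ± 0.20 for Ube2o, -0.59 ± 0.17 for Ube2h, -0.52 ± 0.14 for Bpgm and -0.42 ± 0.15 for Tmcc2. Between Rb1;p130 DKO and p130 KO livers they were -0.61 ± 0.18 for Xpo7, -0.55 ± 0.23 for Ube2o, -0.65 ± 0.20 for Ube2h, -0.73 ± 0.17 for Bpgm and -0.36 ± 0.17 for Tmcc2. Between Rb1 KO and wild-type livers, with 2 arrays each, they were -0.85 ± 0.27 for Xpo7, -0.82 ± 0.34 for Ube2o, -0.72 ± 0.29 for Ube2h, -0.27 ± 0.25 for Bpgm and -0.30 ± 0.26 for Tmcc2. Both Rb1 KO arrays lie in the first array group and the wild-type arrays in the first and second, and with array group as a block this last pair gave -0.56 ± 0.18 for Xpo7, -0.54 ± 0.29 for Ube2o, -0.41 ± 0.20 for Ube2h, -0.11 ± 0.23 for Bpgm and -0.16 ± 0.24 for Tmcc2. These pairs use the arrays on which the genes were picked and are a description. The interaction term asks whether the Rb1 change differed with p107 absent from that with p107 present, in livers without p130. It called 0 of the 8 genes and 0 of 12723 in all (0.0%, limma), with 209 genes at an unadjusted p under 0.05. Its estimates ran from -0.22 (95% interval -0.81 to 0.37) for Ube2o to 0.21 (-0.22 to 0.64) for Bpgm.

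Loss of p107 was not used in choosing the genes. Ube2l6 was the 1 of 8 that was called, lower without p107, where 1.14% of all genes were called in either direction and 0.723% lower. Its signal in the 6 TKO arrays was 1741 at the lowest, 1901 at the median and 2291 at the highest, against 1731, 2389 and 3160 in the 9 Rb1;p130 DKO arrays. The Rb1;p107 DKO arrays had 1637, 2847, 1978, 2085 and 1860.4, against 2502 and 2854 in the Rb1 KO arrays. The groups overlapped in both pairs. The 6 p107;p130 DKO arrays had 1949 at the lowest, 2476 at the median and 2661 at the highest, against 2921, 2631 and 3548 in the p130 KO arrays, and the p107 KO array had 1758, against 2332 and 3150.4 in wild type. In each of the 4 pairs the median was thus lower without p107, and 16 of 18 arrays without p107 lay below the mean of the arrays with it. The additive p107 term was -0.31 ± 0.08, 1.24-fold lower (limma, adjusted p = 0.0366). The call was lost without any 1 of 12 arrays (adjusted p = 0.0519 to 0.0702): the p107 KO array, p130 KO array 3, p107;p130 DKO array 1, Rb1 KO arrays 1 and 2, Rb1;p107 DKO array 5, Rb1;p130 DKO arrays 1 and 5, and TKO arrays 2, 3, 4 and 6.

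The other 7 genes had p107 terms from -0.33 ± 0.11 for Ube2o (limma, adjusted p = 0.126) and -0.22 ± 0.09 for Ulk1 (adjusted p = 0.188) to 0.02 ± 0.09 for Trim10 (adjusted p = 0.925), and Trim10 had -0.0406 under quantile normalization. With array group as a block, 4 of the 8 genes were called lower without p107, where 0.762% of all genes were called in either direction and 0.362% lower. These were Ube2o at -0.56 ± 0.11 (limma, adjusted p = 0.00808), Xpo7 at -0.32 ± 0.07 (adjusted p = 0.0139), Ube2l6 at -0.37 ± 0.09 (adjusted p = 0.0352) and Ube2h at -0.31 ± 0.08 (adjusted p = 0.0395). With genotype means removed, Xpo7, Ube2o and Ube2h had Pearson r of 0.72 to 0.90 with each other. Their calls are therefore not independent of each other. Within the 3 array groups taken singly, the p107 term was -0.61, -0.66 and -0.51 for Ube2o, -0.36, -0.22 and -0.35 for Xpo7, -0.31, -0.36 and -0.44 for Ube2h and -0.46, -0.54 and -0.14 for Ube2l6. The second group holds 9 arrays without p107 and 1 with it, and the third 2 without and 5 with, so p107 and array group overlap and the block cannot fully separate them. The 1 array with p107 in the second group, wild type replicate 2, had the highest Ube2o (5429.5) and Ube2h (5720.3) signals of all arrays. The p107 terms of that group rest on it. The dim Xpo7 probe set 1435814_at gave a p107 term of -0.47 ± 0.09 without the block (limma over 23418 probe sets, adjusted p = 0.00342, 0.692% called), and 1415682_at gave -0.27 ± 0.08 (adjusted p = 0.0935). The late red cell markers had 1 gene called with p107 loss, Kel at -0.32 ± 0.06 (limma, adjusted p = 0.00802), which was not called with array group as a block (-0.25 ± 0.07, adjusted p = 0.0669), and a median sum of 152936 without p107 (117490.0 to 190099) and 154234 with it (125195 to 181072). The part of these markers in the result was not tested.

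**Figure D3:**
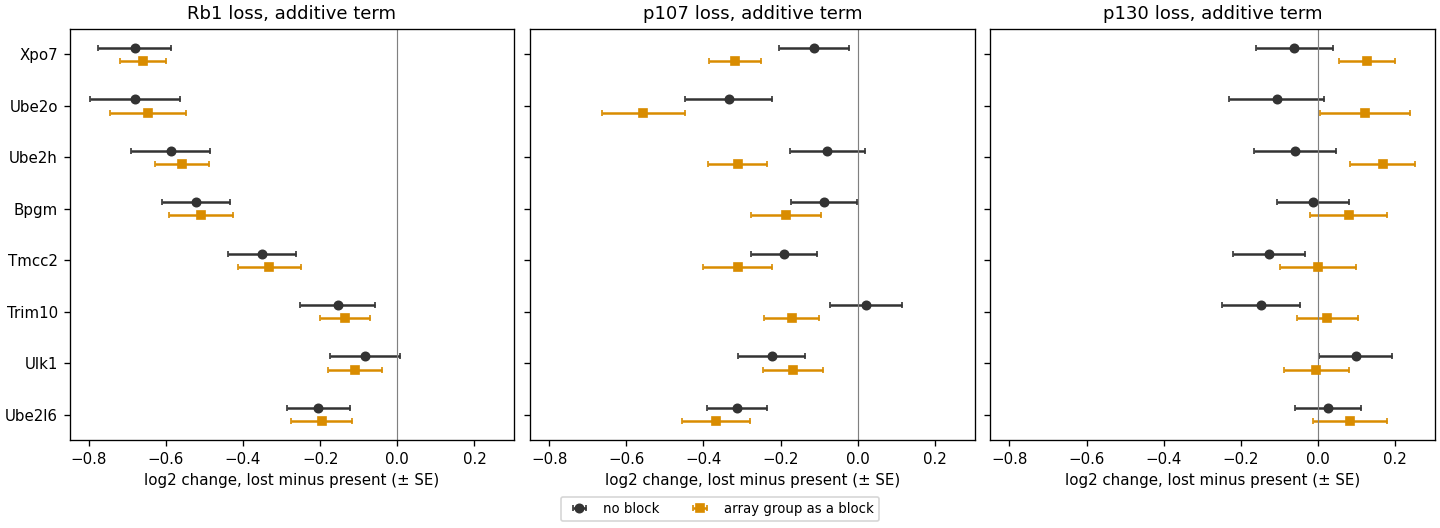
Log2 change (x axis, arrays without the named protein minus arrays with it, point ± SE) of the 8 measured genes (y axis) for the Rb1, p107 and p130 terms of the additive fit on 34 arrays, without a block (circles) and with array group as a block (squares). In the p107 panel the squares of Ube2o, Xpo7 and Ube2h lie further below 0 than their circles, and the Rb1 panel differs little between the fits.

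No gene of the 8 was called with loss of p130, where 0.0157% of all genes were. The terms ran from -0.15 to 0.10. With array group as a block, where 0.0157% of genes were called, none of the 8 was called either, and several terms changed sign: Ube2h had 0.17 with the block and -0.06 without it, Ube2o 0.12 and -0.11, and Xpo7 0.13 and -0.06. Direct pairs also called none of them: 0 of 8 between TKO and Rb1;p130 DKO livers (0.0236% of genes called), 0 of 8 between TKO and Rb1;p107 DKO livers (0.00786%), 0 of 8 between p107;p130 DKO and p130 KO livers (0.0236%) and 0 of 8 between Rb1;p107 DKO and Rb1;p130 DKO livers (0.267%), by limma in each case. In the first of these, Ube2o was lower in TKO livers by a log2 value of -0.42 (95% interval -0.78 to -0.07, limma adjusted p = 0.865) and Xpo7 by -0.25 (-0.53 to 0.03, adjusted p = 0.888). With array group as a block the same pair gave -0.63 (-0.93 to -0.32, limma adjusted p = 0.119) for Ube2o and -0.41 (-0.60 to -0.22, adjusted p = 0.118) for Xpo7. In the Rb1;p107 DKO against the Rb1;p130 DKO, which lie largely in different array groups, Xpo7 had -0.43 with the block and -0.03 without it (limma adjusted p = 0.669 and 0.936). The block left 0 of 8 genes called in each of the 4 pairs, where it called 0.0943%, 0.0157%, 0.0236% and 0.0314% of all genes in the order given above.

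Array group took a larger share of the spread for some genes than for others. It held 53.2% of the variance of Trim10 and 48.1% of that of Ulk1, against 20.7% for Ube2h, 17.4% for Xpo7 and between 1.97% and 5.37% for the other 4. Trim10 averaged 15130 ± 1481 in the first group, 21100 ± 2033 in the second and 17860 ± 4508 in the third, while Ulk1 averaged 1507 ± 176 in the third and 1096 ± 178 and 1075 ± 136 in the first and second (SD, n = 17, 10 and 7). Within the 3 groups the Rb1 term stayed negative for each of the 5 picked genes, at -0.54, -0.66 and -1.06 for Xpo7, -0.49, -0.54 and -1.20 for Ube2o, -0.39, -0.49 and -1.15 for Ube2h, -0.28, -0.47 and -1.07 for Bpgm and -0.23, -0.20 and -0.80 for Tmcc2. The third group, where the values are largest, has 2 arrays with Rb1.

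Apart from genotype, the genes rose and fell together from array to array. After the mean of each genotype was removed, all 28 pairs of the 8 genes had a positive Pearson r over 34 arrays, with a median of 0.65 and a range of 0.04 to 0.92. Of the 28 pairs, 21 had an adjusted permutation p under 0.05 (100000 permutations, Benjamini-Hochberg over the 28) by Pearson's r, and 21 by Spearman's rho. These p-values are for values with genotype means removed only, in which array group was still present. None is given for r with array group means removed. The closest pair was Xpo7 and Trim10, with r = 0.92 and rho = 0.93 (permutation p = 1e-05 for each, the smallest that 100000 permutations can give, adjusted p = 2.33e-05). Trim10 was not picked for its Rb1 value. Xpo7 and Ube2h had r = 0.90 and rho = 0.90, Ube2h and Trim10 r = 0.86 and rho = 0.87, and Ube2o and Tmcc2 r = 0.84 and rho = 0.83 (permutation p = 1e-05 for each). The 7 pairs of Ulk1 had r of 0.04 to 0.27, none with an adjusted permutation p under 0.05. These depended on array group. With its means removed as well, the r of Ulk1 ran from 0.01 with Bpgm to 0.605 with Ube2o. Within the first group the r of Ulk1 was -0.23 to 0.48, within the second -0.62 to 0.21 and within the third 0.48 to 0.81. Ube2l6 lay between, with r of 0.47 to 0.54 with each of Xpo7, Ube2o, Ube2h, Bpgm, Tmcc2 and Trim10.

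These relations share array scaling and array group. With array group means removed as well, the median r was 0.59 (0.01 to 0.81), and without the 2 arrays farthest from the median of the first gene of the pair it was 0.61 (0.002 to 0.91). Within the array groups the median r was 0.64, 0.34 and 0.80, and Xpo7 with Trim10 kept 0.87, 0.93 and 0.92. The median r of each of the 8 genes with all other tested genes was -0.09 to 0.05, and 1.55% to 9.06% of other genes had an r over 0.5 with it.

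**Figure D4:**
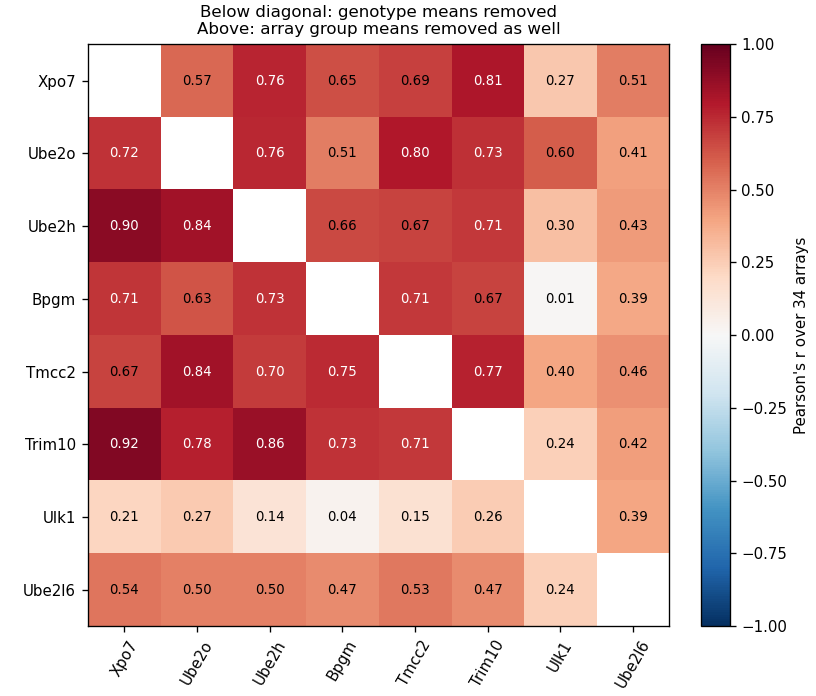
Pearson's r between pairs of the 8 measured genes over 34 arrays (colour scale from -1 to 1, values printed in the cells), below the diagonal with genotype means removed and above it with array group means removed as well. Below the diagonal the Ulk1 pairs hold the lowest values, 0.04 to 0.27, while above it they run from 0.01 with Bpgm to 0.605 with Ube2o. Below the diagonal the block of Xpo7, Ube2o, Ube2h, Bpgm, Tmcc2 and Trim10 holds 0.63 to 0.92.

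Over all 34 arrays, genotype differences included, the genes most alike in signal were found for each. Tcp11l2 was the closest to 4 of the 5 picked genes, with r = 0.96 with Xpo7, 0.91 with Ube2h, 0.87 with Ube2o and 0.85 with Bpgm. Genotype differences are part of these r, and the picked genes were chosen for their fall with Rb1 loss. The part of that choice in the likeness to Tcp11l2 was not tested. The next closest were Bsdc1 for Xpo7 (0.91) and Bpgm (0.82), Fam214b for Ube2o (0.87) and Cmas for Ube2h (0.91). Tmcc2 was closest to Pld3 (0.91) and Dnaja4 (0.86). Trim10 was closest to the urea transporter gene Slc14a1 and to Fech, the last enzyme of haem synthesis (0.92 each), Ulk1 to Flii (0.82) and Wbp1l (0.81), and Ube2l6 to Rnf11 (0.70) and Tmprss6 (0.68). These are descriptions over arrays that share genotype and array group.

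In 15 lists of related genes and cell markers, 14 of 266 genes tested were called with Rb1 loss, beside 2.26% of all genes. Of the 14, 10 rose and 4 fell, beside 223 that rose and 65 that fell over all genes, and none of the lists had a median log2 change beyond 0.10 in either direction, against -0.02 over all genes tested. Of 29 genes of enucleation and nuclear condensation tested, 3 rose and 0 fell, with a median of 0.05. Plek2, an actin-regulating pleckstrin of late erythroblasts, rose to 3284 ± 503 without Rb1, against 1879 ± 420.3 with it (SD, n = 22 and 12; log2 change 0.80 ± 0.09, limma adjusted p = 5.96e-08). Mxi1, a Myc antagonist, rose to 4547 ± 725 without Rb1, against 2931 ± 404 with it (0.62 ± 0.08, adjusted p = 3.91e-06, limma), and Kmt5a, the histone H4 methyltransferase of chromatin compaction, had a log2 change of 0.34 ± 0.075 (limma adjusted p = 0.00534). Each was above the mean of arrays with Rb1 on 22 of 22 arrays without it.

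Exportins other than Xpo7 did not pass the test: Xpo1, Xpo4, Xpo5, Xpo6, Xpot and Cse1l had Rb1 terms from -0.11 to 0.03. Among 28 tested genes of nuclear export and import, 1 rose, the importin Kpna1 (0.53 ± 0.08, limma adjusted p = 5.54e-05). All 11 subunits and partners of the CTLH ligase, the partner of Ube2h, were tested, and Rmnd5a, a RING subunit, rose (0.30 ± 0.08, limma adjusted p = 0.0334) while the other 10 did not pass, Maea at -0.01 and Wdr26 at -0.09 among them. Of 28 other ubiquitin-conjugating enzymes 3 rose and 2 fell. Ube2f, which conjugates NEDD8, fell to 2633 ± 271 without Rb1, against 3287 ± 319 with it (-0.32 ± 0.05, limma adjusted p = 1.01e-04), and Ube2b, which ubiquitinates histones, fell to 3393 ± 465 without Rb1, against 4142 ± 320 with it (-0.30 ± 0.07, limma adjusted p = 0.00922). Ube2s and Ube2c, the enzymes of the anaphase-promoting complex, rose by log2 values of 0.28 ± 0.06 and 0.27 ± 0.07 (limma adjusted p = 0.00758 and 0.0201).

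Of 38 autophagy and mitophagy genes 1 rose, the histone demethylase Kdm3a (0.51 ± 0.10, limma adjusted p = 0.000831), and 0 fell. Bnip3, the relative of Bnip3l, had 0.28 ± 0.12 (limma adjusted p = 0.315) and Ulk2, that of Ulk1, 0.17 ± 0.10 (adjusted p = 0.607). Around Bpgm, 0 of 13 genes of glycolysis and bisphosphoglycerate metabolism passed, with a median of 0.08, and its neighbours in the pathway Pgam1 (0.08), Minpp1 (0.06) and Pklr (-0.18) were among them. Of 27 TRIM ligases 1 rose, Trim24 (0.27 ± 0.07, limma adjusted p = 0.0449). Of 4 genes of ISG15 conjugation beside Ube2l6 none passed, Uba7, its activating enzyme, at -0.15 and Usp18, which removes ISG15, at 0.13. Of 21 genes of reticulocyte clearance and proteostasis 1 fell, Fbxo9 (-0.20 ± 0.05, limma adjusted p = 0.0177), and of 13 late erythroid genes 1 fell, Add2, the gene of beta-adducin in the membrane skeleton (-0.31 ± 0.08, limma adjusted p = 0.0315).

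**Figure D5:**
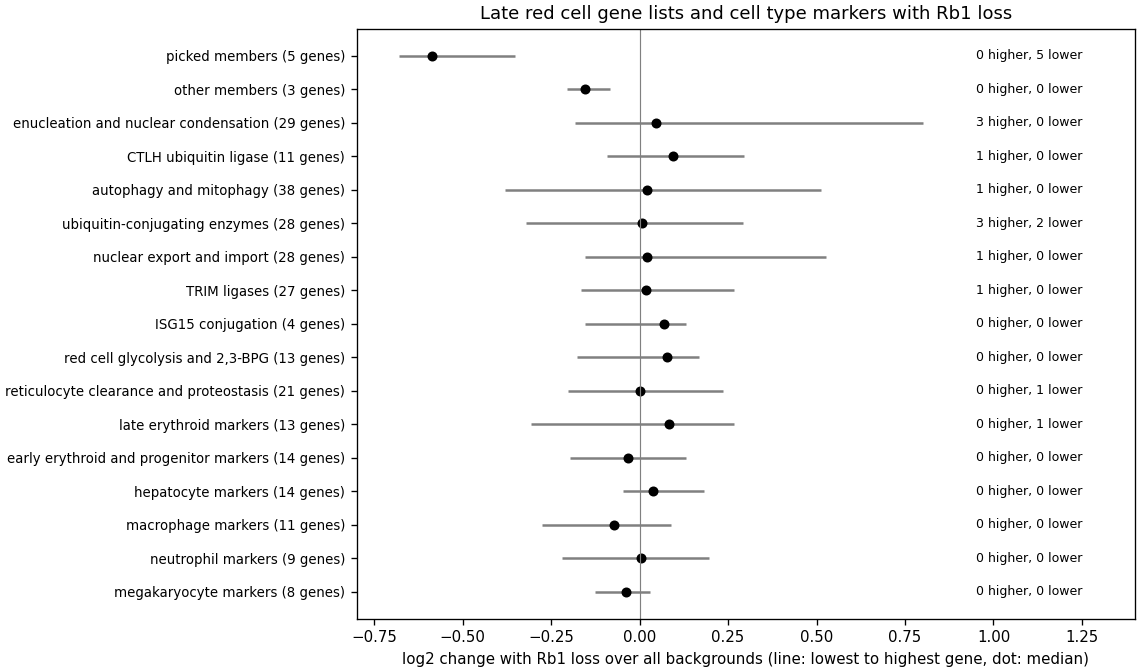
Log2 change with Rb1 loss (x axis, arrays without Rb1 minus arrays with it) for each gene list (y axis, number tested in brackets): dots are medians, lines run from the lowest to the highest gene, and the counts called are printed at the right. The 5 picked genes lie apart at a median of -0.59 because they were chosen by this contrast, and the medians of the related lists lie between -0.07 and 0.09.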

How the data were processed

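Total RNA was labelled with biotin and hybridised to 34 Affymetrix one-colour arrays. The deposited values are linear MAS5 intensity (signal) per probe set, made with GCOS 1.4 per the submitters' processing notes. No detection calls or scan dates were used here. Genes were named from the platform annotation, updated to RefSeq GRCm38.p6: of 45037 probe sets, 34945 had 1 symbol, 932 several (left out) and 9160 none. Each array was brought to a 2% trimmed mean of 500 (it was 495.4 to 497.7 as deposited), and log2(signal + 32) was taken. The brightest probe set stood for each of 18193 genes, and the 12723 that reached 100 on 2 or more arrays entered the tests. The number of arrays limits the precision.

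limma 3.58.1 in R 4.3.3 (lmFit, contrasts.fit, eBayes with trend, two-sided) was fitted over all 34 arrays, once with a term for the loss of each of the 3 genes and once with a mean per genotype. P-values were adjusted by Benjamini-Hochberg over all genes tested in a comparison, with a threshold of 0.05. Array groups came from k-means (3 clusters) on differences between probe sets of 2997 genes. Alternatives were pseudocounts of 1 and 100, other filters, quantile normalization, the mean of a gene's probe sets, eBayes without trend, array group or replicate number as a block, only the groups compared, and leaving out each array. Leaving out Rb1;p130 DKO arrays 8 and 9, and fitting every probe set, were chosen after the data were seen. The fit was tested on simulated data. Named genes are the 10 listed genes, up to 4 called genes a list with the largest test statistic, the 2 genes most alike in signal, and the targeted genes; related genes named with values that did not pass come from the lists. The genes and lists were chosen with earlier results of these data known.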

Additional observations from a re-analysis of the deposited data

Results flagged for a closer look

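Of 32 combinations of a gene and a genotype with 4 to 10 arrays, 5 held an array far from the others of its genotype, by a test that chance passes in about 1 of 20 groups. In 4 of the 5 it was the same array, Rb1;p107 DKO replicate 1, which was the lowest of its genotype. Its Xpo7 signal was 7672.1, against 13545.3 on the next array. Its Ube2o signal was 1328.7, against 2251.6, its Ube2h signal 1926.1, against 3045.8, and its Trim10 signal 13199.4, against 19815.0. This array is the 1 array of its genotype in the first array group, while the other 4 lie in the second. The part of array group in this was not tested. The remaining combination was Trim10 on Rb1;p130 DKO replicate 8, the highest of its genotype at 23341.4, against 17934.9 on the next array.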

How the results depend on the processing

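With p107 loss, 1 of 8 genes was called, beside 1.14% of all genes. The count was 4 with array group as a block, beside 0.762% of all genes. It was 2 with the replicate block (Ube2l6 and Ube2o) and 0 by eBayes without trend (Ube2l6 at adjusted p = 0.0506). Leaving out 1 array gave 0 to 1. The share over all genes under the replicate block, without trend or with arrays left out is not given here. Those counts therefore cannot be set against all genes. The gene lists had 22 called with Rb1 loss with array group as a block, against 14. Trim10's p107 term of 0.02 became -0.0406 under quantile normalization, -0.17 with array group as a block and -0.0484 with the replicate block, and ran from -0.0137 to 0.0562 when 1 array was left out. Ulk1's Rb1 term of -0.08 was 0.0888 on its second probe set, and Xpo7's of -0.68 was -1.33 on 1435814_at. Without both Rb1;p130 DKO arrays 8 and 9, Ube2l6 had a p107 term of -0.35 (limma, adjusted p = 0.00796) and 1 of 8 genes was called. The cause of these shifts was not tested. By list, the block gave 6 calls with Rb1 loss, against 3, for enucleation, and 2, against 1, for each of nuclear transport, autophagy and late erythroid genes. For ubiquitin-conjugating enzymes it gave 5 higher and 2 lower, against 3 and 2. With p107 loss it gave 2, against 0, for reticulocyte clearance, and 0, against 1, for each of nuclear transport, glycolysis and late erythroid genes. Over all genes, array group as a block gave 551 calls with Rb1 loss, against 288, and 97 with p107 loss, against 145. Replicate numbers did not pair the arrays: same-numbered arrays had r of -0.38 to 0.50 (median 0.07 over 67 pairs, 27 above 0.1), and 9 of 33 arrays were closest to their own number, so the block is given only here. Bnip3l and Trim58 could not be measured, and with 1 p107 KO array and 2 arrays each of Rb1 KO and wild type, single losses rest on few samples.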

Other observations

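Loss of p107 called 3 genes of the related lists. Ipo4, an importin that carries histones into the nucleus, had a log2 change of 0.61 ± 0.11 (limma, adjusted p = 0.00301). Slc2a4, a glucose transporter, had -0.39 ± 0.10 (limma, adjusted p = 0.0404), and Kel, described with the markers above, had -0.32 ± 0.06. With array group as a block none of the 3 was called: Ipo4 had 0.36 ± 0.10 (limma, adjusted p = 0.0687), Slc2a4 -0.29 ± 0.11 (adjusted p = 0.207) and Kel -0.25 ± 0.07 (adjusted p = 0.0669). None of these 3 was called with Rb1 loss. Genotype as a whole held 50.2% of the variance of Ube2l6, with 28.7% for p107 and 9.65% for Rb1, while for Xpo7 Rb1 held 59.4% and p107 0.47%. Xpo7 was picked for its Rb1 value. With array group as a block it had a p107 term of -0.32 ± 0.07 (limma, adjusted p = 0.0139).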
